A study of Homo sapiens with 5 samples.

Results

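The antioxidant, glutathione and selenium genes described here are TXN, GCLM, GCLC, HMOX1, SOD1, SLC7A11, GSTM3, SELENOP and AKR1C1. They were taken by symbol, 9 of the 12474 genes in the table, and each was followed at day 0, 3, 6 and 9 of afatinib treatment. The choice of these genes was made with earlier results of these data known. Afatinib is a covalent inhibitor of EGFR and ERBB2. The cells were MDA-MB-468, a triple-negative breast cancer line with amplified EGFR, which carried an expressed lineage barcode in every group. Single-cell RNA was counted with a 3′ Chromium kit in 3 libraries treated with 250 nM afatinib for 3, 6 or 9 days (afatinib D3, D6 and D9, 1 library each) and in 2 untreated libraries of day 0 (untreated D0, replicates 1 and 2). The authors describe thawing of frozen samples before capture, and state the freezing step itself for treated cells only. The pooled barcoded line is the only model.

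Cells keep reactive oxygen in check with small thiols and with enzymes that use them. Cystine enters through the SLC7A11 exchanger, is reduced to cysteine and is joined to glutamate by the ligase of GCLC and GCLM, which limits the rate of glutathione synthesis. Many genes of this system are targets of the transcription factor NRF2, which KEAP1 holds low in unstressed cells, and genes of cystine and amino acid supply are also targets of ATF4, the factor of the amino acid starvation response.

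Of the 9 genes, 4 were higher and 4 were lower in the 3 afatinib libraries than in the 2 untreated libraries, and GSTM3 did not pass the test, where 23.2% of all genes tested were called in either direction. SLC7A11, SELENOP, AKR1C1 and GCLC rose, while TXN, GCLM, HMOX1 and SOD1 fell. Both untreated libraries were of day 0, so afatinib and time in culture cannot be told apart. The 3 treated days served as replicates of treatment. By the slope over the treated days 1 of the 9 genes passed the test, where 0.642% of all genes were called. This was GSTM3, a glutathione transferase, which stood 3.01-fold higher at D9 than at D3.

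The libraries differed in more than treatment. They held 479, 942 and 1139 cells at D3, D6 and D9 against 478 and 1063 untreated cells, with 14517579 to 28148379 counts per library and a median of 13862 to 45658.5 counts per cell. Mitochondrially encoded genes took 17.2%, 16.0% and 8.82% of counts at D3, D6 and D9 against 7.25% and 7.80% in the untreated libraries. Cells under 10% mitochondrial counts made up 17.7%, 19.96% and 75.2% of the D3, D6 and D9 cells against 79.3% and 80.9% of untreated cells. D3 and D6 thus stood apart from the other 3 libraries, and calls named below that end in cells under 10% are given there as well. A single cell barcode was shared, between D3 and D6. EPCAM, an epithelial adhesion molecule, stood at 446 to 666 CPM (counts scaled to the size of the library) in every library and ESR1, the estrogen receptor gene, at 0.305 CPM or less. Of 8 markers of immune, endothelial and fibroblast cells, COL1A1 was in the table, at 2.09 to 7.78 CPM.

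Promoter letters are shown first, since NRF2 and ATF4 bind known sequences. RefSeq windows of 300 bases (GRCh38.p14, 250 before to 50 after the start) matched 6 of the 9 genes: TXN, GCLM, GCLC, GSTM3, SELENOP and AKR1C1. The core of the antioxidant response element bound by NRF2, TGACNNNGC on either strand, was found in 2 of these 6 windows, GCLM and SELENOP, and in 15.4% of the windows of 9810 genes of the table. The core of the ATF4 element, TGATGNAA on either strand, was found in 0 of the 6 windows and in 1.76% of all windows. At that share a count of 0 in 6 says little about these genes. SLC7A11, the 1 member in the list of ATF4 targets below, had no window and was not searched. The windows are given 5′ to 3′ along the gene's strand, with the core in capitals. Both cores lie on the opposite strand, so they read there as the reverse complement.
GCLM: acgatttctGCTTAGTCAttgtcttcc
SELENOP: gctctgcttGCAAGGTCActgcaagaa
The GCLM stretch lies at chr1:93909447-93909473, where the core begins 34 bases before the RefSeq start. The SELENOP stretch lies at chr5:42811974-42812000, where the core begins 99 bases before the RefSeq start. These RefSeq starts differ from the gene ends printed below, which come from GENCODE, and for SELENOP they lie far apart. GCLM and SELENOP, the genes with the core, moved in opposite directions under afatinib. The match is a description of letters, not of binding.

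In cystine import and glutathione synthesis, the RNA of the transporter was far more abundant under afatinib. SLC7A11 (ENSG00000151012, chromosome 4, 138164097 to 138242349 on GRCh38), the cystine-glutamate exchanger, had 27.1, 31.6 and 28.6 CPM at D3, D6 and D9, against 5.37 and 5.63 CPM in the untreated D0 replicates. All 3 afatinib libraries stood far above both untreated libraries, and the treated days lay close together. The level averaged 29.1 ± 2.29 CPM under afatinib (SD over the 3 days, n = 3 libraries) and 5.499 ± 0.187 CPM untreated (SD, n = 2). The log2 fold change was 2.40 ± 0.156 (SE, edgeR quasi-likelihood test, Benjamini-Hochberg adjusted p = 0.0011), a 5.28-fold rise. The treated days gave log2 ratios to the untreated mean of 2.30 (D3), 2.52 (D6) and 2.38 (D9).

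The 2 subunits of the ligase moved in opposite directions. GCLC (ENSG00000001084, chromosome 6, 53497341 to 53616970), the catalytic subunit, had 15.8, 21.9 and 18.0 CPM at D3, D6 and D9, against 10.6 and 11.6 CPM in the untreated D0 replicates. GCLM (ENSG00000023909, chromosome 1, 93885199 to 93909456), the modifier subunit, had 38.3, 36.9 and 41.4 CPM at D3, D6 and D9, against 69.1 and 75.9 CPM in the untreated D0 replicates. Neither gene's treated libraries overlapped the untreated ones. GCLC rose by 0.74 ± 0.178 on the log2 scale (SE, edgeR adjusted p = 0.0237). GCLM fell by 0.90 on the log2 scale, with a standard error of 0.134 (edgeR adjusted p = 0.0054). The GCLC call ended in cells thinned to 5000 counts (edgeR adjusted p = 0.060) and without the D6 library (edgeR adjusted p = 0.0637).

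GSTM3 (ENSG00000134202, chromosome 1, 109733932 to 109741038), a glutathione transferase, took its own course. It had 24.3, 38.6 and 73.0 CPM at D3, D6 and D9, against 31.4 and 34.8 CPM in the untreated D0 replicates. The D3 library lay below both untreated libraries and the D6 and D9 libraries above them, so the groups overlapped. Afatinib against untreated gave 0.46 ± 0.395 on the log2 scale (SE), which did not pass (edgeR adjusted p = 0.426), and without D9 the value was -0.076.

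Among the enzymes that handle reactive oxygen, TXN (ENSG00000136810, chromosome 9, 110243810 to 110256507) encodes thioredoxin, which reduces protein disulfides. It had 339, 382 and 444 CPM at D3, D6 and D9, against 872 and 837 CPM in the untreated D0 replicates. Every afatinib library lay below both untreated libraries, and D3 was lowest. TXN fell by 1.14 on the log2 scale (SE 0.192, edgeR adjusted p = 0.0080). Within every library TXN was lower in cells with 10% or more mitochondrial counts, 294 against 528 CPM at D3 and 614 against 815 CPM in untreated D0 replicate 2 (plain CPM of each cell class). In cells under 10% mitochondrial counts TXN still fell, by 0.80 on the log2 scale (edgeR adjusted p = 0.0133), and its log2 ratio at D3 was -0.81 in place of -1.34.

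SOD1 (ENSG00000142168, chromosome 21, 31659666 to 31668931), the copper-zinc superoxide dismutase of the cytosol, had 204, 229 and 327 CPM at D3, D6 and D9, against 431 and 424 CPM in the untreated D0 replicates. The 3 afatinib libraries lay below both untreated libraries, with D9 nearest to them. The log2 fold change was -0.75 ± 0.227 (SE, edgeR adjusted p = 0.0481). This call stood closest to the threshold of 0.05 and ended in thinned cells (0.0845), without D3 (0.116) and without D6 (0.149), all edgeR adjusted p. It also ended when shares of cells were tested with limma (adjusted p = 0.0994). In cells under 10% mitochondrial counts the log2 fold change was -0.51 (edgeR adjusted p = 0.0427).

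HMOX1 (ENSG00000100292, chromosome 22, 35380361 to 35394214) encodes heme oxygenase 1, which breaks down heme and is a classical NRF2 and BACH1 target. It had 13.6, 15.3 and 17.8 CPM at D3, D6 and D9, against 29.4 and 26.7 CPM in the untreated D0 replicates. The treated libraries all lay below the untreated ones. HMOX1 fell by 0.84 on the log2 scale (log2 fold change -0.845, SE 0.158, edgeR adjusted p = 0.0109).

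AKR1C1 (ENSG00000187134, chromosome 10, 4963253 to 4983283), an aldo-keto reductase that reduces steroids and lipid aldehydes and is a target of NRF2 in human cells, had 18.9, 47.4 and 34.8 CPM at D3, D6 and D9, against 3.52 and 3.49 CPM in the untreated D0 replicates. The treated libraries were all above the untreated ones, and D6 was the highest. The log2 fold change was 3.26 ± 0.389 (SE, edgeR adjusted p = 0.0028), 9.61-fold. AKR1C2, chosen after its values were seen, is nearly identical in sequence and could share reads with AKR1C1. It had 13.9, 38.4 and 35.8 CPM at D3, D6 and D9, against 3.10 and 2.29 CPM in the untreated D0 replicates (log2 fold change 3.46, edgeR adjusted p = 0.0040), so the split between the 2 genes is uncertain.

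SELENOP (ENSG00000250722, chromosome 5, 42799880 to 42887392) encodes selenoprotein P, a secreted carrier of selenium that liver supplies to other tissues. It had 39.6, 49.4 and 52.0 CPM at D3, D6 and D9, against 8.24 and 7.996 CPM in the untreated D0 replicates. Every afatinib library stood above both untreated libraries, by a log2 ratio of 2.29 at D3, 2.60 at D6 and 2.68 at D9. The log2 fold change was 2.53 ± 0.176 (SE, edgeR adjusted p = 0.0012), 5.79-fold.

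**Figure D1:**
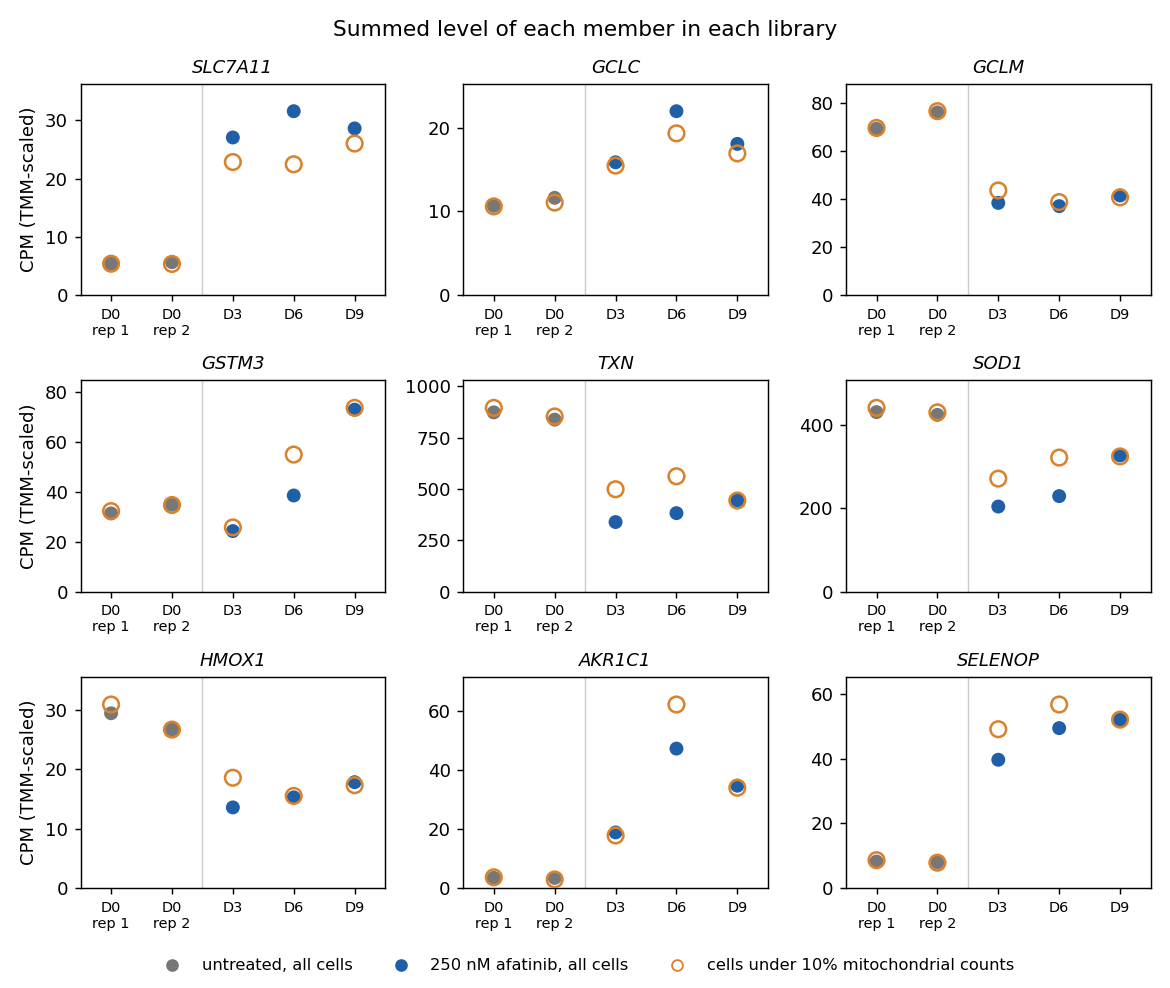
Summed level in CPM (y axis, from 0, own scale per gene) of each gene in untreated D0 replicates 1 and 2 and at afatinib D3, D6 and D9. Filled points are all cells and open circles are cells under 10% mitochondrial counts, in which TXN at D3 stands at 498 CPM against 339 CPM in all cells, while GSTM3 at D9 stands at 73.7 CPM against 73.0 CPM.

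Read against all 12145 genes tested, the 4 genes that rose compare with 13.1% of genes called higher. The 4 that fell compare with 10.1% called lower, so that 8 of 9 were called here and 23.2% of all genes. Since the 9 were chosen with earlier results of these data known, that excess is no result about them as a set. Over all genes the calls split into 1590 higher and 1229 lower. Once mitochondrial and ribosomal protein genes were left out they split into 1280 higher and 1490 lower, and all 8 calls here were kept. For 8 of the 9 genes the afatinib libraries lay all above or all below the untreated pair, as they did for 57.7% of all genes. The calls of SLC7A11, SELENOP and AKR1C1 also stood without untreated D0 replicate 1 (edgeR adjusted p of 0.0151, 0.0161 and 0.0287) and without untreated D0 replicate 2 (0.0155, 0.0165 and 0.0365), while those of TXN, GCLM, GCLC, HMOX1 and SOD1 ended in both cases, with the direction kept. The labels do not say that the untreated replicates are separate cultures, so the error behind these p-values is that between libraries and may be technical only. Untreated D0 replicate 2 was also taken as a batch of its own in the count adjustment of the authors. This was inferred from values missing in the counts and is not stated in the labels.

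**Figure D2:**
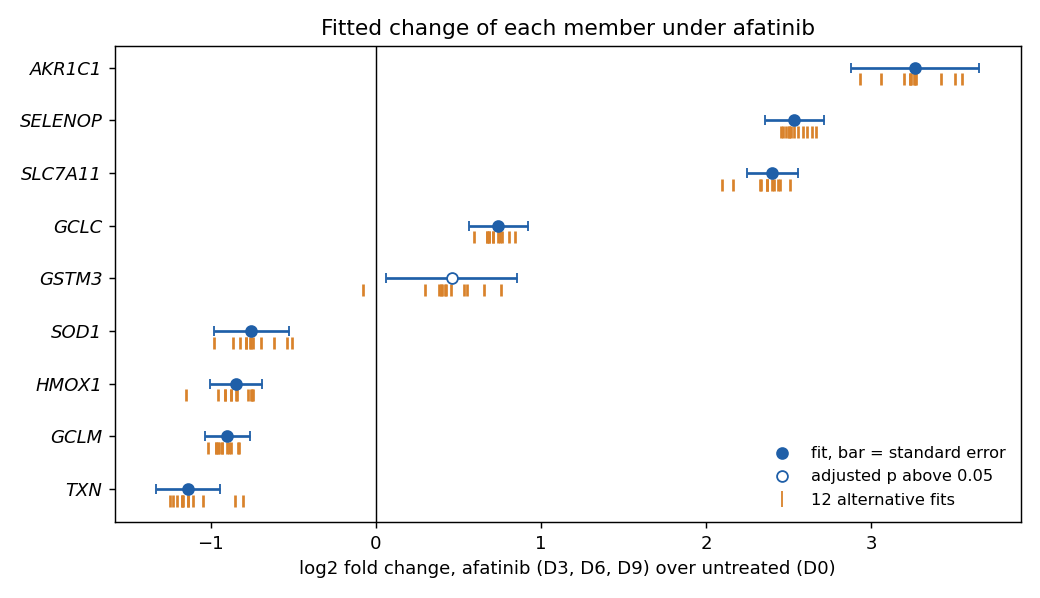
Log2 fold change of each gene, afatinib D3, D6 and D9 over untreated D0 (x axis), with the standard error of the edgeR fit. Filled points passed at an adjusted p of 0.05, the open point (GSTM3) did not, and the 12 ticks under each point are the same change under other settings, which for GSTM3 reach -0.076.

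The share of cells that held at least 1 count (UMI) of a gene was read after every cell had been thinned to 5000 UMIs, which lost 0 cells. SLC7A11 was found in 15.4% (12.3 to 19.0), 17.4% (15.0 to 19.99) and 14.7% (12.7 to 16.9) of cells at D3, D6 and D9, against 2.93% (exact binomial 95% interval 1.61 to 4.87) and 2.26% (1.45 to 3.34) of cells in the untreated replicates. SELENOP was found in 14.4% (11.4 to 17.9), 19.3% (16.8 to 21.99) and 21.6% (19.2 to 24.1) of cells at D3, D6 and D9, against 3.77% and 3.39% of cells in the untreated replicates. AKR1C1 was found in 7.31% (5.14 to 10.0), 16.7% (14.3 to 19.2) and 14.05% (12.1 to 16.2) of cells at D3, D6 and D9, against 1.26% and 1.13% of cells in the untreated replicates. For these 3 genes the treated intervals lay above the untreated ones, and most treated cells still held no UMI at this depth.

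GCLC was found in 10.0%, 11.1% and 9.04% of cells at D3, D6 and D9, against 4.602% and 5.83% of cells in the untreated replicates. TXN was found in 66.4% (62.0 to 70.6), 72.9% (70.0 to 75.7) and 86.2% (84.1 to 88.2) of cells at D3, D6 and D9, against 94.1% and 93.6% of cells in the untreated replicates, and its median per cell was 1, 1 and 2 UMIs on those days against 4 and 3 UMIs untreated. SOD1 was found in 52.2% (47.6 to 56.7), 58.6% (55.4 to 61.8) and 79.1% (76.6 to 81.4) of cells at D3, D6 and D9, against 81.6% and 80.8% of cells in the untreated replicates. For SOD1 the D9 interval overlapped both untreated intervals, while D3 and D6 lay below them.

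GCLM was found in 15.7%, 16.5% and 18.8% of cells at D3, D6 and D9, against 29.5% and 26.7% of cells in the untreated replicates. HMOX1 was found in 3.97%, 5.20% and 7.11% of cells at D3, D6 and D9, against 11.1% and 11.8% of cells in the untreated replicates. In cells under 10% mitochondrial counts the D3 share of HMOX1 was 12.9% (6.64 to 21.98, 85 cells) against 12.1% in both untreated libraries, an interval too wide to show a difference, while its summed level in those cells was 18.6 CPM at D3 against 30.9 and 26.7 CPM untreated.

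For 8 of the 9 genes the 3 treated shares lay all above or all below the untreated pair, as for 49.8% of 11908 genes. Intervals cover counting error only, and since all cells are of 1 line no share in a cell type that lacks these genes can be given. Without thinning, shares move with depth: GCLC was found in 35.9%, 29.2% and 30.7% of cells at D3, D6 and D9, against 33.9% and 19.9% of cells in the untreated replicates.

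**Figure D3:**
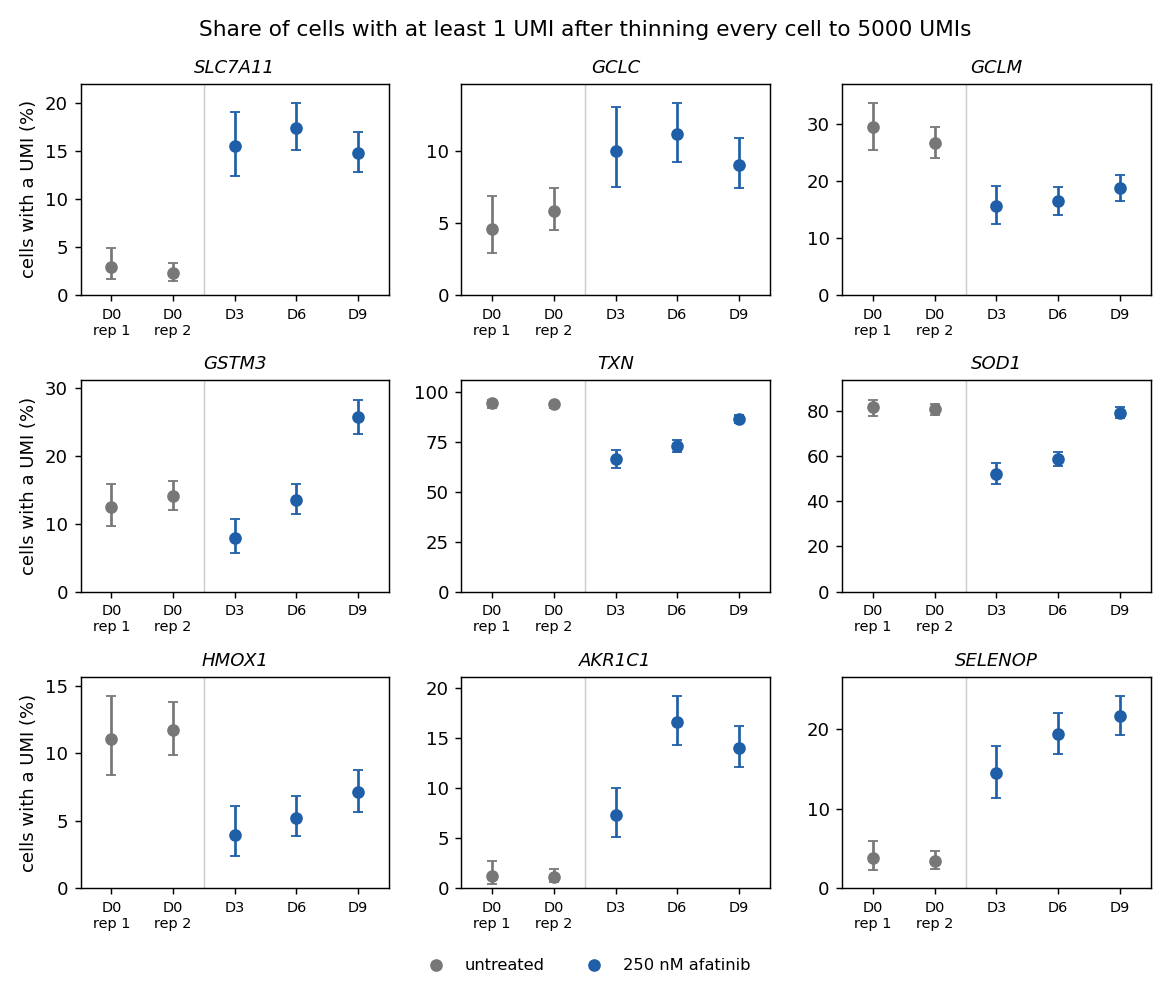
Percent of cells with at least 1 UMI (y axis, from 0, own scale per gene) after thinning to 5000 UMIs per cell, in each library, with exact binomial 95% intervals. GSTM3 stands at 7.93% at D3, 13.6% at D6 and 25.7% at D9, against 12.6% and 14.1% in the untreated libraries.

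Whether the genes turned between day 3 and day 9 was read from the slope over the 3 treated libraries in a fit that also held the treatment. The slope is given as the log2 level at D9 over D3 along that line. It was above 0 for all 9 genes, beside 5703 of the 12145 genes tested. Since the 9 were chosen with earlier results known, that count is no result about them as a set. Of the 9, 1 passed, GSTM3, against 0.642% of all genes (0.0988% higher and 0.543% lower). The split of these calls over all genes was 12 higher and 66 lower, but 650 higher and 220 lower with DESeq2, 859 and 397 in thinned cells and 370 and 267 in detection rates. GSTM3 had a slope of 1.59 ± 0.194 (SE, edgeR adjusted p = 0.0229), which kept its call in all other settings run. Among them were cells under 10% mitochondrial counts (1.45, edgeR adjusted p = 0.0258), of which D3 held 85.

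The GSTM3 rise was also seen per cell. After thinning, 7.93% (5.67 to 10.7), 13.6% (11.5 to 15.9) and 25.7% (23.2 to 28.4) of cells held a UMI at D3, D6 and D9, against 12.6% (9.72 to 15.9) and 14.1% (12.1 to 16.4) untreated. The D9 interval lay above all others. Cells with at least 2 UMIs after thinning were 0.835% at D3, 2.12% at D6 and 7.02% at D9, against 0.837% and 2.63% in the untreated libraries. At D9 the 10% of cells with the most GSTM3 held 56.1% of its UMIs, and the highest cell held 7. In cells under 10% mitochondrial counts the share with a UMI was 10.6% (4.96 to 19.2), 20.2% (14.7 to 26.7) and 27.7% (24.7 to 30.8) at D3, D6 and D9.

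SOD1, with the next smallest p, had a slope of 0.68 ± 0.190 (SE, edgeR adjusted p = 0.0877), which did not pass, and 0.26 in cells under 10% mitochondrial counts (edgeR adjusted p = 0.393). The slope of TXN was 0.39 (edgeR adjusted p = 0.220), that of HMOX1 0.39 (0.240) and that of GCLM 0.11 (0.728), and in cells under 10% mitochondrial counts they were -0.17, -0.068 and -0.086. For these 4 genes the part that the mitochondrial share has in the slope was not tested, but the share itself was 8.82% of counts at D9 and 17.2% at D3.

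Among the genes that rose under afatinib, the slope was 0.39 for SELENOP (edgeR adjusted p = 0.223), 0.17 for GCLC (0.692), 0.08 for SLC7A11 (0.830) and 0.83 ± 0.447 for AKR1C1 (0.268). AKR1C1 peaked at D6: without the D3 library its slope was -0.89 (edgeR adjusted p = 0.0054, 1 residual degree of freedom, from the untreated libraries). By size alone, GSTM3 was the 1 gene of the 9 with a log2 ratio of 1 or more at D9 over D3, against 1.06% of all genes, and 0 were at -1 or less, against 4.44%.

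**Figure D4:**
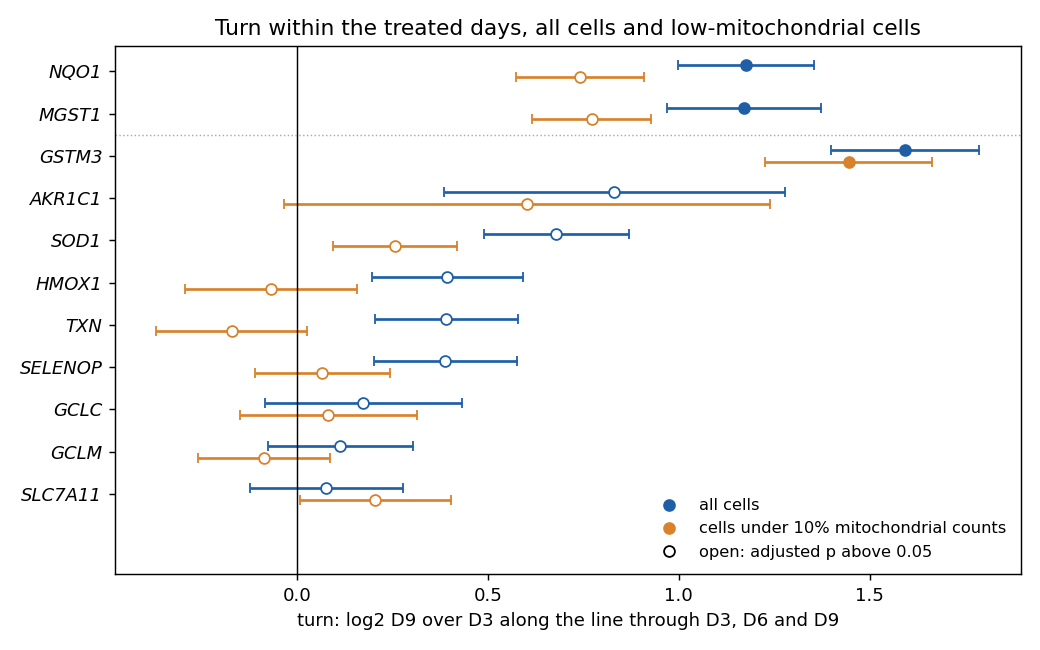
Slope within the treated days, as log2 D9 over D3 (x axis), with its standard error, in all cells and in cells under 10% mitochondrial counts. GSTM3 stands at 1.59 and 1.45, TXN at 0.39 and -0.17, and the 2 genes above the dotted line, NQO1 and MGST1, were added after their values were seen.

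Day by day against the untreated mean, 3 of the 9 genes were higher by a log2 ratio of 1 or more at D3 (6.36% of all genes), 3 at D6 (6.82%) and 4 at D9 (5.09%), where GSTM3 joined SLC7A11, SELENOP and AKR1C1 with 1.14. Lower by as much were 3 genes at D3 (4.14% of all genes), 1 at D6 (5.73%) and 0 at D9 (7.21%). The 3 at D3 were TXN (-1.34), SOD1 (-1.07) and HMOX1 (-1.05), and in cells under 10% mitochondrial counts they stood at -0.81, -0.68 and -0.63. These are ratios of single libraries to the same untreated mean, with no test.

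Other genes of these pathways were read from lists chosen with earlier results known. The counts are to be read against the 13.1% of all genes called higher and 10.1% called lower. All but that of the ATF4 list below are too near these shares, or too small, to be a result about the list. The ATF4 count is a description and no test of its list either, because of how the lists were chosen. Of 26 NRF2 targets, 4 rose and 4 fell, with a median log2 fold change of -0.11, beside 0.05 over all genes. The 4 that rose include SLC7A11, AKR1C1 and GCLC, and the 4 that fell include TXN, GCLM and HMOX1. Of 8 regulators of NRF2, 0 were called in either direction by edgeR or by DESeq2, and 2 had an unadjusted edgeR p under 0.05. ATF4 targets, a list of amino acid supply genes and stress genes such as SESN2, moved together: 11 of 13 rose and 0 fell, with a median of 1.26.

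In the ATF4 list, SESN2, a stress-induced inhibitor of mTORC1, had 25.8, 45.8 and 36.0 CPM at D3, D6 and D9 against 11.5 and 12.1 CPM untreated, which is 1.61 on the log2 scale (edgeR adjusted p = 0.0055). SLC7A5, a transporter of large neutral amino acids, rose by 1.30 (edgeR adjusted p = 0.0071) and PHGDH, the first enzyme of serine synthesis, by 1.26 (0.0105). SLC3A2, the heavy chain that partners SLC7A11 and SLC7A5, rose by 1.06 (0.0112), with 387, 442 and 533 CPM at D3, D6 and D9 against 217 and 217 CPM untreated. Without either untreated replicate 1 gene of the list, SLC7A11, remained called.

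Of 13 genes of glutathione synthesis and recycling, 3 rose (SLC7A11, SLC3A2, GCLC) and 2 fell, GCLM and the glutaredoxin GLRX3 (-0.86, edgeR adjusted p = 0.0337). Of 12 glutathione transferases, 1 rose and 2 fell, among them GSTO1 (-0.91, edgeR adjusted p = 0.0236), and of 15 genes of the thioredoxin and peroxiredoxin system, 1 rose and 2 fell, TXN and TXNDC17 (-1.16, edgeR adjusted p = 0.0068), a thioredoxin-like protein whose call ended in cells under 10% mitochondrial counts (-0.79, edgeR adjusted p = 0.0682). Of 5 genes in the list of superoxide dismutases and catalase, 3 were tested, SOD1, CAT and CCS, and SOD1 alone was called. SOD2 and SOD3 were not tested. Among 9 genes of heme and iron handling HMOX1 fell and IREB2, an iron regulatory protein, rose by 0.47 (edgeR adjusted p = 0.0440). The IREB2 call ended in 12 of the other settings run, among them DESeq2 (adjusted p = 0.0577), RLE factors (edgeR adjusted p = 0.0584), cells under 10% mitochondrial counts (0.0836) and thinned cells (0.568).

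Of 17 selenoproteins 2 rose, SELENOP and the thioredoxin reductase TXNRD3, and 3 fell, with a median of -0.20. SELENOH, a nuclear selenoprotein, fell by 0.80 on the log2 scale (edgeR adjusted p = 0.0172). Of 9 genes of selenocysteine machinery and selenium uptake 1 rose, SECISBP2, which recruits the selenocysteine elongation factor (0.71, edgeR adjusted p = 0.0182). The other 2 called genes of that list fell, TRNAU1AP (-0.85, edgeR adjusted p = 0.0150) and SCLY, which recycles selenium from selenocysteine (-0.53, 0.0433). By edgeR adjusted p, the SECISBP2 call ended without D6 (0.0635), in thinned cells (0.0515) and in cells under 10% mitochondrial counts (0.113, log2 fold change 0.50). The SCLY call ended in the same 3 settings (0.104, 0.194 and 0.0704), and that of TRNAU1AP in thinned cells (0.0725). Of 6 aldo-keto reductases, 2 rose, AKR1C1 and AKR1C2, and 1 fell.

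Along the treated days 12 genes of the whole table were called higher, and 3 of them are in these lists: GSTM3, MGST1, a membrane-bound glutathione transferase, and NQO1, a quinone reductase and NRF2 target. NQO1 had 119, 173 and 270 CPM at D3, D6 and D9 against 226 and 223 CPM untreated, a slope of 1.18 (edgeR adjusted p = 0.0361). MGST1 had 243, 308 and 547 CPM at D3, D6 and D9 against 348 and 339 CPM untreated, a slope of 1.17 (edgeR adjusted p = 0.0489). As with GSTM3, the D3 library was the lowest and the D9 library the highest of all 5. In cells under 10% mitochondrial counts the slopes were 0.74 (edgeR adjusted p = 0.0842) and 0.77 (0.0666), which did not pass. By edgeR adjusted p, the MGST1 call also ended once transcript length was offset (0.0601) and without untreated D0 replicate 1 (0.0629) or 2 (0.0631).

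**Figure D5:**
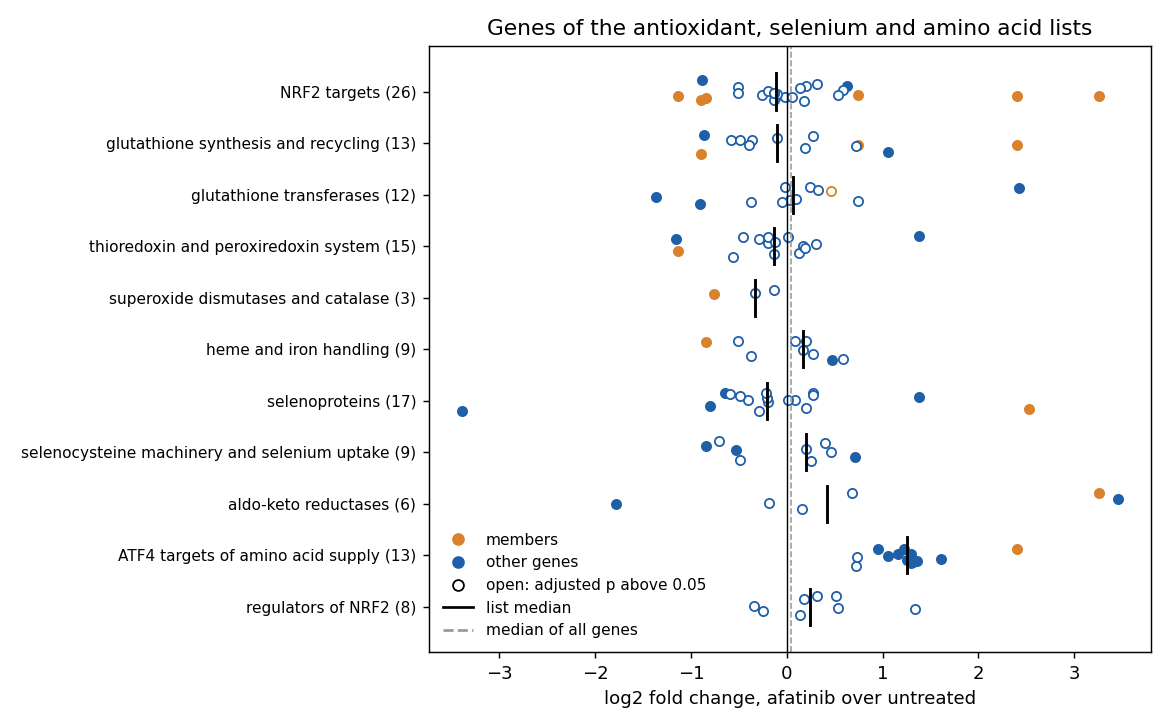
Log2 fold change, afatinib over untreated (x axis), of every tested gene in 11 lists (number of genes in brackets), with the list median as a black bar and the median of all genes, 0.05, as a dashed line. The ATF4 targets lie to the right of 0 with a median of 1.26, while the NRF2 targets lie on both sides with a median of -0.11.

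Co-variation over cells within a library could be read for few members. The mean Pearson r of TXN and SOD1 over the 5 libraries was 0.191 (478 to 1139 cells each), highest at D3 with 0.246 and lowest in untreated D0 replicate 1 with 0.149. The other 35 pairs of members had a mean r between -0.082 and 0.082, but most hold a gene with few UMIs, for which sampling keeps r near 0, so nothing is read from them. Only TXN, GCLM and SOD1 had a UMI in 10% or more of the thinned cells of every library, and the genes most like TXN among 5036 such genes were RPS12 (0.446), RPL13 (0.437) and RPS3 (0.435), while RPS3 (0.315) and RPS12 (0.313) were among the 3 most like SOD1. These are ribosomal protein genes. For GCLM the closest, USP39, had a mean r of 0.064, a weak value, beside a median of 0.0039 over all genes. TXN fell as the mitochondrial share of a cell rose, with r from -0.488 to -0.404 over libraries, and SOD1 likewise, with r from -0.343 to -0.319. Cells of a library share its capture and depth, and these values are a description.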

How the data were processed

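Transcripts were counted in 4101 MDA-MB-468 cells of 5 libraries with a Chromium 3′ kit. Per the submitters' processing notes, Cell Ranger 6.1.2 and GRCh38 were used. The authors then left out shallow cells, cells whose mitochondrial share was out of range, likely doublets and scarce genes. They also ran ComBat-seq for a possible batch effect, since the cells of day 0 came from separate captures. Their deposited table of expected counts therefore gives adjusted UMIs of each gene in each cell, as whole numbers with no scaling by depth. Cell names, identifiers and symbols are the other deposited columns, and the start of a cell's name gave its library.

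Adjusted counts can lack single values. The treated libraries carry this trace as well: of the genes that could be read for it, 4958 of 8938 at D3, 4497 of 7853 at D6 and 4804 of 8551 at D9 lacked the value 2. Untreated D0 replicate 2 shared 0 genes that lack the value 2 with any other library, while untreated D0 replicate 1 and D3 shared 4532 of 8316. Untreated D0 replicate 2 was therefore taken as 1 batch of the adjustment and the other 4 libraries as the other. The test was set out as for unadjusted counts. The adjustment draws the untreated libraries together, so p-values may be too small.

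Counts were summed per library and compared with the quasi-likelihood test of edgeR 4.0.16 (TMM factors, filterByExpr, 12145 genes, all 9 members among them), 3 treated against 2 untreated libraries, with 3 residual degrees of freedom. The turn was the slope over treated days in a fit with a treatment term, with 2. Benjamini-Hochberg adjusted p-values under 0.05 were called. Alternatives were RLE factors, DESeq2 1.42.0, no filter, mitochondrial and ribosomal protein genes left out, cells under 10% mitochondrial counts, cells thinned to 5000 UMIs, an offset for transcript length, each library left out, a linear trend over day, the day as a factor, and limma 3.58.1 on shares of cells. A ratio of single days was read against a log2 size of 1.

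The members and lists were chosen with earlier results of these data known. Named are the members, up to 3 called genes of each list with the largest fold change and a mean of at least 20 CPM, and for members with a UMI in 10% of cells of every library the 3 genes of highest mean correlation, of which 1 is not reported here. AKR1C2, NQO1, MGST1, TXNRD3, CAT and CCS were named after their values were seen. Positions come from GENCODE on GRCh38. Lineage barcodes were not used here.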

Additional observations from a re-analysis of the deposited data

Results flagged for a closer look

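GSTM3 was the 1 gene of the 9 whose slope over the treated days passed the main test. Its slope over D3, D6 and D9 was 1.59 on the log2 scale (SE 0.194, edgeR adjusted p = 0.0229), with each treated day in a single library.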

How the results depend on the processing

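Of the 9 genes, 8 were called in afatinib against untreated, and the same 8 under RLE factors, DESeq2, no filter, the offset for transcript length, without mitochondrial and ribosomal protein genes and in cells under 10% mitochondrial counts. Leaving out single libraries gave 3 to 8 calls, with 3 without either untreated library, thinned cells gave 6 (GCLC and SOD1 lost), detection rates 7 (SOD1 lost) and the linear trend over day 1 (AKR1C1). The direction of these 8 genes was kept in all fits run, while GSTM3 ranged from -0.076 (without D9) to 0.76 (without D3) with single libraries left out.

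The turn called 1 gene, but 2 with DESeq2, 3 in thinned cells, 3 in detection rates, 6 with the day as a factor and 1 to 6 with single libraries left out, where the day as a factor and the fits without a treated library rest on 1 residual degree of freedom, from the untreated libraries. The slope changed sign in cells under 10% mitochondrial counts for TXN (-0.17), GCLM (-0.086) and HMOX1 (-0.068), in thinned cells for GCLC (-0.047) and SLC7A11 (-0.28), and in detection rates on the arcsine scale for GCLC (-0.017) and SLC7A11 (-0.0098). With single libraries left out it ran from -0.10 to 0.33 for GCLM, -0.57 to 0.94 for GCLC, -0.28 to 0.45 for SLC7A11 and -0.89 to 2.64 for AKR1C1. The cause was not tested. Genes past a log2 ratio of 1 at D3 were 6, and 3 in cells under 10% mitochondrial counts. The treated minus untreated share of GSTM3 was -12.6 percentage points in cells not thinned.

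Over all genes, afatinib against untreated called 2819, but 1363 in thinned cells, 1590 in detection rates, 601 with the linear trend, 332 and 239 without untreated D0 replicates 1 and 2, 1461 without D6 and 6817 without D9. The turn called 78, but 870 with DESeq2, 124 in cells under 10% mitochondrial counts, 1256 in thinned cells, 637 in detection rates, 5147 with the day as a factor, 296 and 294 without the untreated replicates, and 5273, 5085 and 876 without D3, D6 and D9. Of 13 genes named from the lists, 12 lost their call without either untreated replicate, 4 in thinned cells and 4 in cells under 10% mitochondrial counts (TXNDC17, IREB2, SECISBP2 and SCLY). No paired analysis was possible because the treated libraries carry no replicate number. With 1 library per treated day, a day and its library cannot be told apart. Nor can afatinib and time in culture, since no untreated library was of a later day.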
